A study of Mus musculus with 8 samples.

Results

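The 49 genes described here encode the receptors for glutamate and the scaffold, kinase and adhesion proteins that hold them at the postsynaptic side of excitatory synapses. They were chosen by symbol, with earlier results of these data known. The list holds 4 AMPA receptor subunits, 6 NMDA receptor subunits, 6 kainate or delta receptor subunits, 6 metabotropic receptors, 4 membrane-associated guanylate kinases (MAGUKs), 10 Shank, Homer and Dlgap scaffolds, 4 subunits of calcium/calmodulin-dependent kinase II (CaMKII), 6 transmembrane AMPA receptor regulatory proteins (TARPs) and 3 neuroligins. Transcripts were matched to the 49 symbols in the deposited files, which hold 53392 genes, and all 49 were among the 20097 genes with enough reads to be tested. The RNA came from the cortex of newborn (P0) mice of the FVB/N strain, in 4 libraries from mutants that carry R342X in Phf6 and 4 libraries from wild-type mice. Phf6 lies on the X chromosome and encodes a nuclear protein with PHD-type zinc fingers. Both genotypes share the strain, age, tissue and TRIzol extraction, and the labels name no sex, litter, animal or batch, so p-values may measure only technical spread between these samples. The comparison asks how gene expression in newborn cortex differs with the mutation.

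Glutamate opens AMPA, NMDA and kainate receptors, which are ion channels built of several subunits, and it also acts on metabotropic receptors, which signal through G proteins. MAGUKs such as PSD-95 (Dlg4) bind the tails of NMDA receptors and TARPs, Dlgap and Shank proteins form the next layer, and Homer proteins tie Shank to group I metabotropic receptors. In rodent forebrain much of this set matures after birth: Grin2a joins Grin2b, PSD-95 gains on SAP102 (Dlg3), Camk2a gains on Camk2b, and the flop splice form of AMPA subunits gains on flip.

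The flip and flop forms differ by a choice between neighbouring alternative exons of 115 bases that encode part of the ligand-binding domain next to the channel. Their exons are shown for Gria1 and Gria2, the AMPA subunits with the highest levels here, because the flip and flop shares given with the AMPA subunits rest on annotated transcripts that differ by them. Sequences were read from the GENCODE M21 transcripts (GRCm38) in the direction of the gene, and capitals mark the 36 bases at which flip and flop of the same gene differ. The Gria1 flip exon is at chr11:57310608-57310722 and its flop exon at chr11:57309769-57309883, both on the plus strand. The Gria2 flip exon is at chr3:80690404-80690518 and its flop exon at chr3:80691320-80691434, both on the minus strand.
Gria1 flip: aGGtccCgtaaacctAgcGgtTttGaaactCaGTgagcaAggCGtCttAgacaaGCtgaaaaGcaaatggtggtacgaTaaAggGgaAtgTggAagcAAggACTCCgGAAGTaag
Gria1 flop: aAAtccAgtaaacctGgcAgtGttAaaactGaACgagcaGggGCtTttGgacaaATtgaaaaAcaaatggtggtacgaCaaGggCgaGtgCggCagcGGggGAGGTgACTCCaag
Gria2 flip: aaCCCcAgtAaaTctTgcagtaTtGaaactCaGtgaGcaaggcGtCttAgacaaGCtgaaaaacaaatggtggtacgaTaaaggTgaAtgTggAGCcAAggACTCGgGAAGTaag
Gria2 flop: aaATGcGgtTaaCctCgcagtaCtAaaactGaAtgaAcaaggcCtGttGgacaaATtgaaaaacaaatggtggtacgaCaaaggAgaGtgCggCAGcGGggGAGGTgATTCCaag

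Mutant libraries held 30469745 to 39453169 estimated reads and wild-type libraries 48841467 to 74266937, so every wild-type library was deeper than any mutant library. Phf6 averaged 42.2 ± 1.93 CPM (read counts scaled to library size) in mutants against 79.0 ± 8.87 CPM in wild type (SD, n = 4 each). This log2 fold change, -0.90 ± 0.08 (SE; edgeR adjusted p = 0.00226), goes with the labels. Along the leading principal component of log2 CPM, which carried 35.3% of the variance, the 8 libraries fell into 2 sets that cross the genotypes. Set 1 held mutant replicates 1, 2 and 3 with wild-type replicate 1, and set 2 held mutant replicate 4 with wild-type replicates 2, 3 and 4. The labels give no source for these sets, and they cross the genotypes unevenly, so many results are followed by their values within each set or from a fit with the set as a second term. The sets were drawn from the same expression values that this fit tests, so its p-values may be too small. All 8 cortical excitatory neuron markers were detected, Tbr1 at 209.2 CPM in mutants against 211.4 CPM in wild type on average. Of 4 cerebellar markers, Atoh1, Gabra6 and Pcp2 were too low to be tested. All markers of striatum, hippocampus, thalamus, choroid plexus and red blood cells, 4 of each, were detected, and their sums overlapped between genotypes. Choroid plexus markers summed to 534.2 to 789.3 CPM in mutants and 504.5 to 683.0 CPM in wild type. Striatum markers summed to 80.2 to 93.2 CPM in mutants and 77.7 to 95.8 CPM in wild type. What these sources add to the members' values was not tested.

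Levels of the 49 genes spanned more than 2 orders of magnitude per length of transcript. In TPM, which are scaled by transcript length and allow genes to be compared, Camk2b was highest at 380.4 ± 18.0 TPM in mutants against 336.8 ± 25.6 TPM in wild type (SD, n = 4 each). Dlgap4 followed at 259.0 ± 10.5 TPM in mutants against 244.9 ± 15.2 TPM in wild type. Dlg4 was at 239.3 ± 16.0 TPM in mutants against 221.4 ± 18.1 TPM in wild type, and Gria2 at 187.8 ± 9.8 TPM in mutants against 203.8 ± 22.6 TPM in wild type, and in wild type the TPM ranges of these 3 genes overlapped from each to the next, so their order there is not separated by the spread. The lowest level was that of Grin2c, an NMDA subunit known mainly from cerebellum, at 1.46 ± 0.358 TPM in mutants against 1.41 ± 0.181 TPM in wild type. Grin2a, Grm8, Grm4, Cacng5, Dlgap2 and Grik4 also averaged below 10 TPM in both genotypes.

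**Figure D1:**
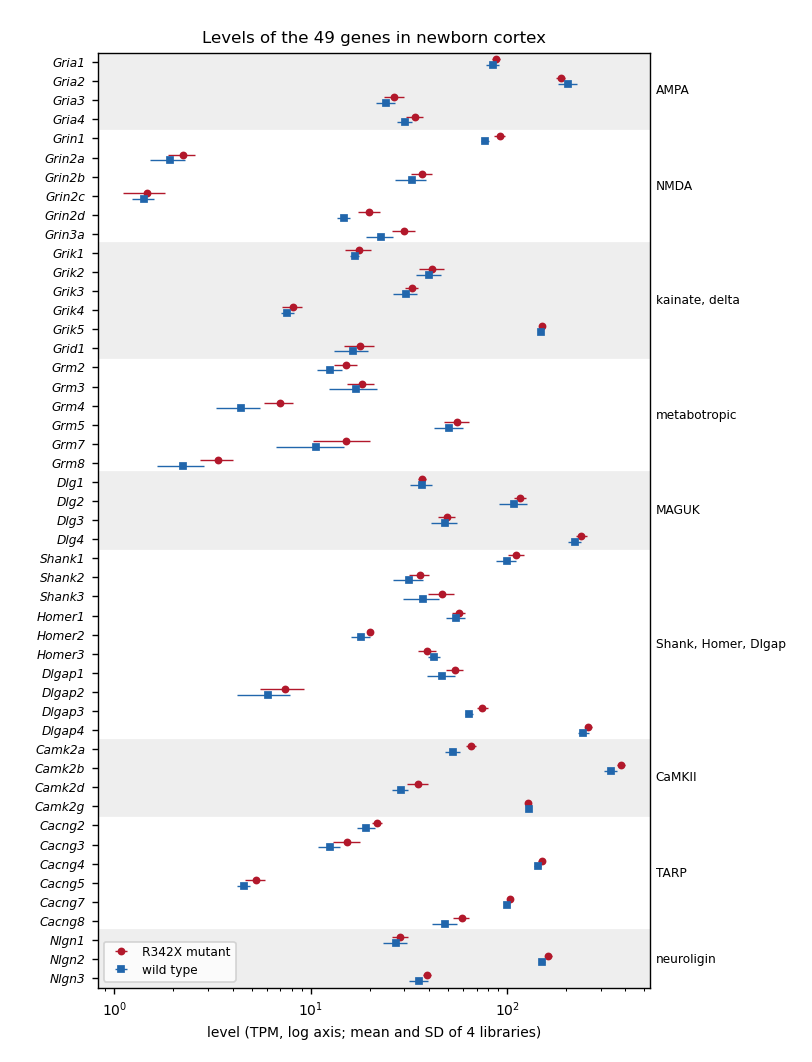
Level of each of the 49 genes in TPM on a log axis, grouped by role; circles (mutant) and squares (wild type) are means of 4 libraries and bars are SD. Camk2b is highest and Grin2c lowest in both genotypes, and for most genes the bars of the genotypes overlap.

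No member passed the test between genotypes, while the fold changes lay mostly on the side of higher expression in mutants. In edgeR's quasi-likelihood test with Benjamini-Hochberg adjustment over 20097 genes, 0 of 49 members had an adjusted p under 0.05, against 4 of 20097 genes (0.0199%, all 4 lower in mutants), and the smallest adjusted p of a member was 0.159, for Camk2a. At an unadjusted p under 0.05, 12 members were higher in mutants and 2 were lower, where 6.89% of all tested genes were higher and 6.84% lower. The log2 fold change of mutant over wild type was above 0 for 41 of 49 members (83.7%), against 10115 of 20097 genes (50.3%). The median log2 fold change was 0.11 over the members and 0.001 over all tested genes. DESeq2, run on the same counts, called 4 members, all higher in mutants (Grin2d, Camk2a, Grin1 and Grm4), where it called 2.0% of all genes. At an adjusted p under 0.05 the authors' deposited table has 4 members higher in mutants (Grin2d, Camk2a, Grin1 and Grm4) and 2 lower (Gria2 and Grik2), where 1.46% of its 14991 genes with an adjusted p are higher and 1.32% lower. Without mutant replicate 4, the mutant library that sits with most wild-type libraries on the leading component, edgeR called 7 members, against 3.37% of all genes. In bulk tissue, fewer cells of a type and less RNA per cell cannot be told apart.

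Members followed the library sets as well as the genotypes. The mean over the 49 genes of log2 CPM, after each gene's mean over the 8 libraries was taken off, was 0.08, 0.14, 0.09 and -0.05 in mutant replicates 1 to 4, against 0.05, -0.08, -0.06 and -0.15 in wild-type replicates 1 to 4. Mutant replicate 2 was the highest of the 8 libraries for 21 of the 49 genes, and wild-type replicate 4 was the lowest for 29. With the set as a term beside genotype, 0 of 49 members were called, against 121 of 20097 genes (0.602%), and the smallest adjusted p of a member was 0.0666, again for Camk2a. In that edgeR fit at an unadjusted p under 0.05, 9 members were higher and 2 lower, where 6.48% of all genes were higher and 7.21% lower. Also in that fit, 35 of 49 members (71.4%) had a log2 fold change above 0, against 48.5% of all genes, and the median was 0.04, against -0.004 over all genes. The genotype difference within set 1 and within set 2 had the same sign for 32 members, of which 24 were higher in mutants in both sets and 8 lower, and 17 members had opposite signs. Over all genes, 26.6% were higher in both sets and 29.3% lower in both.

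**Figure D2:**
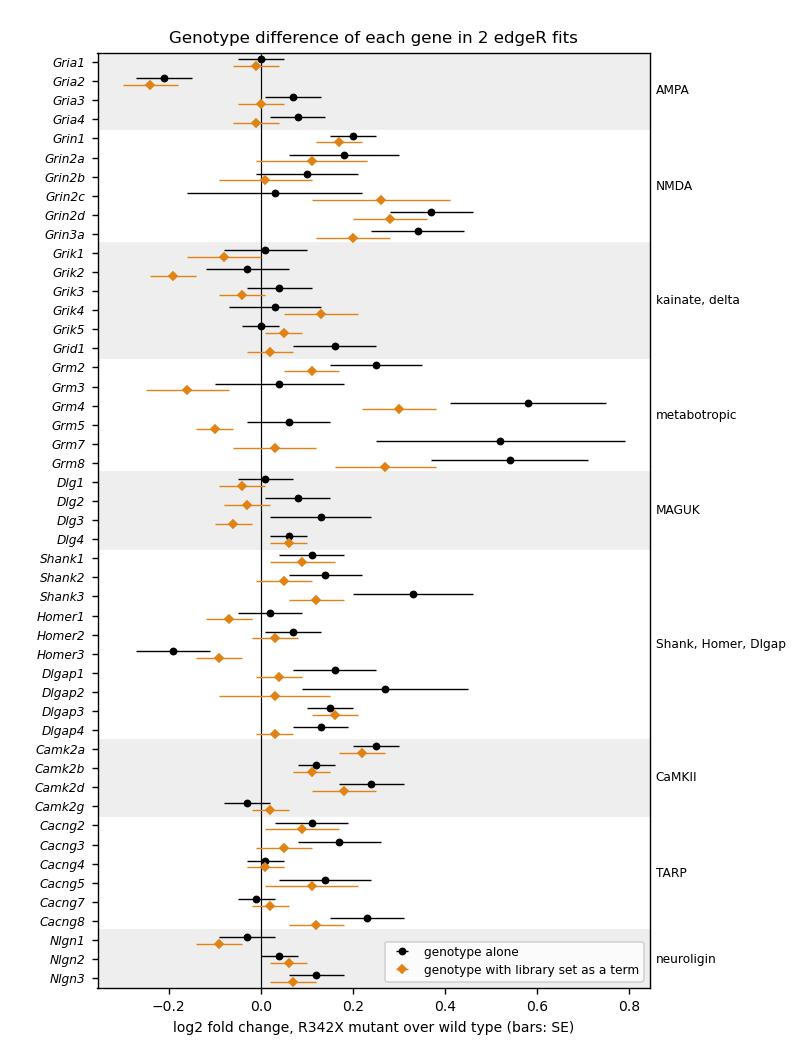
Log2 fold change of mutant over wild type for each gene, with SE, from the edgeR fit with genotype alone (circles) and from the fit that adds the library set (diamonds). 41 of 49 circles and 35 of 49 diamonds lie above 0, and the metabotropic genes Grm4, Grm7 and Grm8 move most between the fits.

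**Figure D3:**
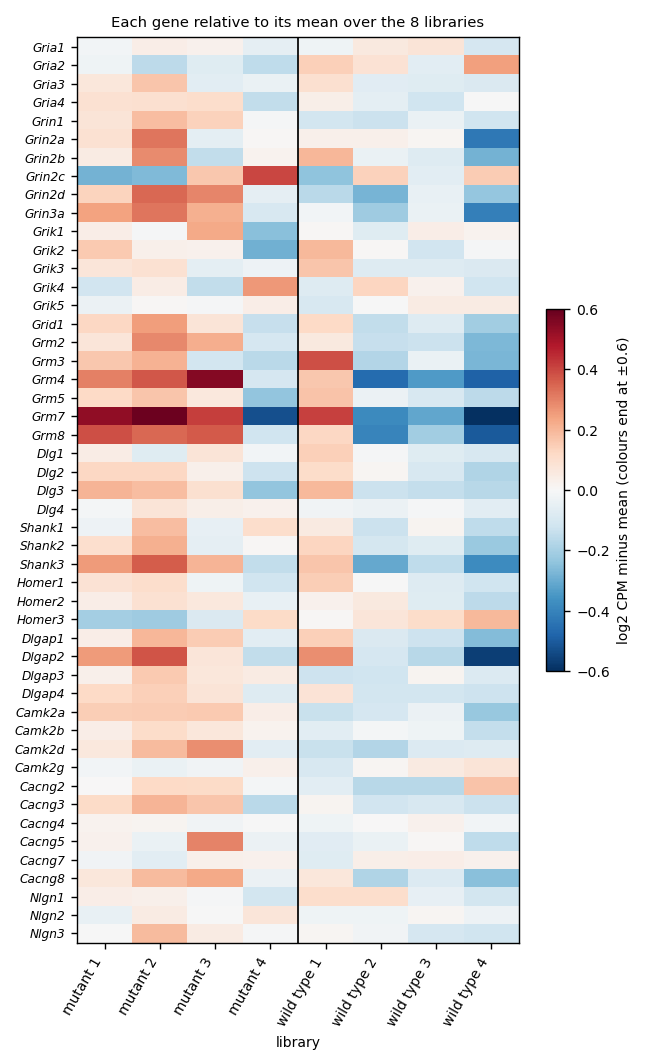
Log2 CPM of each gene in each library minus the gene's mean over the 8 libraries (colours end at ±0.6), with mutant libraries left of the line. The column means are 0.08, 0.14, 0.09 and -0.05 in mutant replicates 1 to 4 and 0.05, -0.08, -0.06 and -0.15 in wild-type replicates 1 to 4.

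Of the 4 AMPA receptor subunits, which form the channels that carry most fast excitation, Gria2 had the largest difference, on the side of a lower level in mutants. Gria2 (ENSMUSG00000033981.14, chr3:80681450-80802835, minus strand, GRCm38), the subunit that makes the channel poorly permeable to calcium, was at 560.8, 512.8, 541.7 and 513.7 CPM in mutant replicates 1 to 4, against 629.4, 605.8, 546.5 and 675.9 CPM in wild-type replicates 1 to 4. Wild-type replicate 3 lay inside the mutant range and the other wild-type libraries lay above it. The log2 fold change was -0.21 ± 0.06 (SE; edgeR adjusted p = 0.247), at 86.6% of the wild-type mean, and it was -0.23 within set 1 and -0.24 within set 2. With the set as a term it was -0.24 ± 0.06 (edgeR adjusted p = 0.116). In the authors' deposited table, which has a log2 fold change of -0.93 for Phf6 and so runs mutant over wild type, Gria2 has -0.19 ± 0.06 with an adjusted p of 0.0138. Gria1 had a log2 fold change of -0.002 ± 0.05, Gria3 of 0.07 ± 0.06 and Gria4 of 0.08 ± 0.06, and the genotypes overlapped in CPM for each. In the fit with the set, those of Gria3 and Gria4 were 0.00 ± 0.05 and -0.01 ± 0.05.

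Gria2 made up 55.9% ± 1.32 of the TPM of the 4 AMPA subunits in mutants and 59.3% ± 2.53 in wild type (SD, n = 4 each). The shares by library were 57.0%, 54.0%, 56.2% and 56.4% in mutants and 61.0%, 58.2%, 56.4% and 61.9% in wild type, and they overlapped. An exact two-sided permutation test gave p = 0.0857, or 0.171 after adjustment over the 6 subunit shares tested, where a share can pass only if most of the 6 reach the smallest p that the design allows. Both genotypes held mostly the flip form shown above. The flop transcript took 16.6% ± 1.06 of flip plus flop TPM of Gria1 in mutants and 16.4% ± 0.937 in wild type, with an exact permutation p of 0.829. For Gria2 the flop share was 34.3%, 32.7%, 33.4% and 36.1% in mutants, against 32.8%, 39.7%, 37.1% and 42.0% in wild type. Its means were 34.1% ± 1.46 in mutants and 37.9% ± 3.94 in wild type, the genotypes overlapped, and the exact permutation p was 0.143 (0.457 adjusted over the 4 subunits). The annotated flop transcript of Gria2 is 10371 bases long and its main flip transcript 4026 bases, so its share also depends on the untranslated ends. Gria4 was at a flop share of 32.9% ± 5.39 in mutants and 38.1% ± 5.38 in wild type (exact permutation p = 0.229). All flip and flop shares counted coding transcripts only. The coding flop transcripts of Gria3 had no estimated reads in any wild-type library and in mutant replicates 1 and 4, and took 0.736% in mutant replicate 2 and 0.38% in mutant replicate 3. Its annotated coding flop transcripts are 3081 and 2667 bases long and its coding flip transcript 5192 bases, so this share also depends on the annotated ends. This look at flip and flop, like the search of promoters, was added after the data were seen.

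All 6 NMDA receptor subunits had a log2 fold change above 0, with a median of 0.19, and this held for all 6 with the set as a term, with a median of 0.18. Grin1 (ENSMUSG00000026959.13, chr2:25291181-25319187, minus strand), the subunit present in every NMDA receptor, was at 174.3, 187.3, 181.8 and 164.4 CPM in mutant replicates 1 to 4, against 152.9, 150.9, 160.5 and 151.7 CPM in wild-type replicates 1 to 4. Each mutant library was above each wild-type library, the nearest pair being mutant replicate 4 and wild-type replicate 3. For Grin1 the log2 fold change was 0.20 ± 0.05 (SE; edgeR adjusted p = 0.189), and it was 0.24 within set 1 and 0.09 within set 2. The exact permutation p was 0.0286, the smallest that 4 against 4 libraries can give and the one that any gene without overlap has. Genes without overlap in CPM made up 2.95% of all tested genes on the higher side and 3.20% on the lower side, against 5 of 49 members higher and 0 lower. In TPM the same count was 5 higher and 0 lower, where 3.72% of all genes were higher and 2.01% lower. In the authors' deposited table Grin1 has a log2 fold change of 0.15 ± 0.05 with an adjusted p of 0.0177.

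Among the regulatory NMDA subunits, Grin2d and Grin3a, which are known for high levels early in life, had the largest differences with genotype alone. Grin2d was at 43.4, 50.2, 48.5 and 38.0 CPM in mutants, against 35.2, 32.4, 38.3 and 33.6 CPM in wild type. The difference was 0.37 ± 0.09 on the log2 scale (SE; edgeR adjusted p = 0.188), with 0.42 within set 1 and 0.13 within set 2. Mutant replicate 4 lay just under wild-type replicate 3 in CPM, while in TPM each mutant library, at 16.5 to 22.7 TPM, was above each wild-type library, at 13.7 to 15.7 TPM. In the authors' deposited table its log2 fold change is 0.24 ± 0.09 with an adjusted p of 0.0179. Grin3a, at 0.34 ± 0.10 on the log2 scale (edgeR adjusted p = 0.247), overlapped between genotypes. With the set as a term it was 0.20 ± 0.08, below Grin2c at 0.26 ± 0.15, and Grin2b was at 0.10 ± 0.11 with genotype alone and 0.01 ± 0.10 with the set. Grin2b, at 36.9 ± 4.54 TPM in mutants against 32.8 ± 5.94 TPM in wild type, was far above Grin2a, at 2.23 ± 0.345 TPM in mutants against 1.91 ± 0.383 TPM in wild type. Grin2a made up 5.69% ± 0.316 of the summed TPM of Grin2a and Grin2b in mutants, against 5.50% ± 0.582 in wild type (SD, n = 4 each). The genotypes overlapped and the exact permutation p was 0.629, so no difference in the balance of Grin2a and Grin2b was detected in these libraries.

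The kainate receptor subunits and the delta receptor subunit Grid1 differed little, with 4 of 6 above 0 and a median log2 fold change of 0.02. Grik5, a high-affinity subunit that needs a partner from Grik1 to Grik3, was the most abundant per length at 151.2 ± 5.74 TPM in mutants against 149.0 ± 3.03 TPM in wild type. In CPM it was at 254.1, 261.7, 259.4 and 268.4 in mutants and 244.2, 260.0, 269.6 and 270.1 in wild type, with a log2 fold change of -0.0006 ± 0.04 (SE). Grik2, a subunit that forms channels on its own, was at 122.3, 112.0, 111.6 and 89.7 CPM in mutants, against 125.6, 110.3, 101.3 and 109.1 CPM in wild type. Mutant replicate 4 was the lowest of all libraries and wild-type replicate 1 the highest. The Grik2 log2 fold change was -0.03 ± 0.09 with genotype alone and -0.19 ± 0.05 with the set as a term (edgeR adjusted p = 0.124), with -0.12 within set 1 and -0.25 within set 2. In the authors' deposited table Grik2 has a log2 fold change of -0.14 ± 0.06 with an adjusted p of 0.0489. Grik1, Grik3 and Grik4 had log2 fold changes of 0.01 ± 0.09, 0.04 ± 0.07 and 0.03 ± 0.10 on the genotype-alone fit, and Grid1 of 0.16 ± 0.09. In the fit with the set they were -0.08 ± 0.08, -0.04 ± 0.05 and 0.13 ± 0.08, and 0.02 ± 0.05 for Grid1.

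The 6 metabotropic receptors had the largest median log2 fold change of the 9 role groups, 0.38, and all 6 were above 0, but the median was 0.07 with the set as a term, with 4 of 6 above 0. The largest values were those of Grm4, Grm8 and Grm7, the group III receptors of the list, which are mainly presynaptic and lower cyclic AMP. Grm4 was at 15.1, 15.9, 18.0 and 11.3 CPM in mutants, against 13.6, 8.68, 9.47 and 8.53 CPM in wild type. Mutant replicate 4 lay below wild-type replicate 1, and within each set every mutant library was above every wild-type library. Its log2 fold change was 0.58 ± 0.17 (SE; edgeR adjusted p = 0.246), with 0.25 within set 1 and 0.33 within set 2, and 0.30 ± 0.08 with the set as a term (edgeR adjusted p = 0.117). The authors' deposited table gives 0.32 ± 0.11 for Grm4 with an adjusted p of 0.0113. Grm8 was at 6.97, 6.75, 6.87 and 4.75 CPM in mutants, against 5.73, 3.84, 4.43 and 3.52 CPM in wild type, and its log2 fold change of 0.54 ± 0.17 (edgeR adjusted p = 0.262) was 0.24 within set 1 and 0.25 within set 2.

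Grm7 was the member that moved most with the library set. It was at 35.7, 37.2, 32.9 and 16.9 CPM in mutant replicates 1 to 4, against 32.7, 18.7, 19.7 and 14.7 CPM in wild-type replicates 1 to 4. Libraries of set 1 lay at 32.7 CPM or above and those of set 2 at 19.7 CPM or below, whatever the genotype. Its log2 fold change was 0.52 ± 0.27 with genotype alone and 0.03 ± 0.09 with the set as a term (edgeR adjusted p = 0.412 and 0.931). Grm5, the group I receptor that binds Homer, was the most abundant at 55.7 ± 8.04 TPM in mutants against 50.8 ± 8.54 TPM in wild type. It was at 208.3, 215.1, 200.0 and 162.6 CPM in mutants, against 215.3, 187.0, 179.3 and 171.7 CPM in wild type. The difference was 0.06 ± 0.09 on the log2 scale with genotype alone and -0.10 ± 0.04 with the set as a term. The group II receptors Grm2 and Grm3, which also lower cyclic AMP, had log2 fold changes of 0.25 ± 0.10 and 0.04 ± 0.14 with genotype alone, and both overlapped between genotypes. Adding the set gave 0.11 ± 0.06 for Grm2 and -0.16 ± 0.09 for Grm3, and Grm3 was at -0.30 within set 1.

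The MAGUK scaffolds did not separate the genotypes. All 4 had a log2 fold change above 0 with genotype alone (0.01 to 0.13, median 0.07), and 1 of 4 did so with the set as a term. Dlg4, which encodes PSD-95, was at 387.0, 412.6, 399.9 and 397.8 CPM in mutants, against 385.2, 381.3, 389.5 and 373.8 CPM in wild type. Mutant replicate 1 lay inside the wild-type range and the other mutant libraries lay above it. For Dlg4 the log2 fold change was 0.06 ± 0.04 (SE; edgeR adjusted p = 0.464) and it was 0.06 ± 0.04 with the set as a term. Dlg4 made up 54.1% ± 0.992 of the TPM of the 4 MAGUKs in mutants and 53.5% ± 1.86 in wild type (exact permutation p = 0.657). Dlg3, which encodes SAP102, made up 11.2% ± 0.658 in mutants and 11.6% ± 0.56 in wild type.

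Of the 10 Shank, Homer and Dlgap scaffolds, 9 had a log2 fold change above 0, with a median of 0.13, and 8 did so with the set as a term, with a median of 0.04. Dlgap3 (ENSMUSG00000042388.14, chr4:127169204-127237022, plus strand), a protein that links PSD-95 to Shank, was at 126.6, 138.4, 130.0 and 128.4 CPM in mutants, against 113.7, 114.1, 125.4 and 117.0 CPM in wild type. Each mutant library was above each wild-type library, with mutant replicate 1 and wild-type replicate 3 closest. The log2 fold change was 0.15 ± 0.05 (SE; edgeR adjusted p = 0.252), 0.21 within set 1 and 0.11 within set 2, and the authors' deposited table gives 0.14 ± 0.06 with an adjusted p of 0.0513. Homer3, a long Homer adaptor, was the member of the group below 0, at 33.6, 33.5, 36.5 and 42.1 CPM in mutants and 39.0, 40.8, 42.0 and 44.5 CPM in wild type. Mutant replicates 1 to 3 lay below every wild-type library and mutant replicate 4 among them. For Homer3 the log2 fold change was -0.19 ± 0.08 (edgeR adjusted p = 0.334) and -0.09 ± 0.05 with the set as a term.

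Dlgap4, the most abundant of these scaffolds per length, was at 341.2, 347.2, 331.8 and 297.8 CPM in mutants, against 333.1, 291.0, 291.0 and 288.3 CPM in wild type. The Dlgap4 log2 fold change was 0.13 ± 0.06 with genotype alone and 0.03 ± 0.04 with the set as a term. Shank3, a master scaffold of the deep layer of the postsynaptic density, had 0.33 ± 0.13 with genotype alone (edgeR adjusted p = 0.321) and 0.12 ± 0.06 with the set as a term, and overlapped between genotypes. Transcripts of Homer1 with a coding sequence under 600 bases, among them the short form that neuronal activity is known to induce and that lacks the coiled coil, took 18.1% ± 1.93 of Homer1 TPM in mutants and 16.4% ± 3.75 in wild type (exact permutation p = 0.429). The difference of 1.73 percentage points was 0.362 in estimated counts and 0.809 to 3.51 when 1 library was left out. Wild-type replicate 1, at 21.7%, was the highest library and wild-type replicate 2, at 13.6%, the lowest.

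CaMKII, the kinase that calcium entry through NMDA receptors activates, gave 3 of the 5 members without overlap in CPM and 1 of the 5 in TPM, where Camk2d and Camk2b overlapped and Grin2d and Cacng7 did not. For Cacng7 the lowest mutant library was at 101.8 TPM and the highest wild-type library at 101.7 TPM. Its log2 fold change in the edgeR fit was -0.01 ± 0.04 (SE), with overlap in CPM. Camk2a (ENSMUSG00000024617.16, chr18:60925618-60988152, plus strand), the alpha subunit, was at 172.8, 173.5, 173.9 and 160.4 CPM in mutant replicates 1 to 4, against 142.4, 145.8, 152.1 and 133.4 CPM in wild-type replicates 1 to 4. Each mutant library was above each wild-type library. The log2 fold change was 0.25 ± 0.05 (SE; edgeR adjusted p = 0.159, exact permutation p = 0.0286), 0.28 within set 1 and 0.16 within set 2. With the set as a term it was 0.22 ± 0.05 (edgeR adjusted p = 0.0666). In the authors' deposited table Camk2a has 0.18 ± 0.07 with an adjusted p of 0.0165.

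Camk2d, the delta subunit known also from heart, was at 65.7, 71.9, 76.4 and 60.1 CPM in mutants, against 57.3, 55.5, 59.5 and 59.6 CPM in wild type. Mutant replicate 4 was above wild-type replicate 4 by less than 1 CPM. The log2 fold change was 0.24 ± 0.07 (SE; edgeR adjusted p = 0.246), 0.31 within set 1 and 0.05 within set 2. Camk2b (ENSMUSG00000057897.14, chr11:5969644-6066362, minus strand), the beta subunit that binds actin, was at 689.8, 723.9, 704.6 and 681.7 CPM in mutants, against 643.3, 665.3, 659.2 and 608.0 CPM in wild type. Its log2 fold change was 0.12 ± 0.04 (edgeR adjusted p = 0.284), 0.13 within set 1 and 0.08 within set 2. Camk2g did not follow the other subunits, with a log2 fold change of -0.03 ± 0.05 (0.02 ± 0.04 with the set as a term) and overlap between genotypes. Camk2a made up 11.0%, 11.0%, 10.6% and 10.4% of the TPM of the 4 subunits in mutants, against 9.81%, 9.57%, 10.1% and 9.33% in wild type. The means were 10.8% ± 0.266 in mutants and 9.70% ± 0.326 in wild type without overlap, with an exact permutation p of 0.0286, or 0.171 adjusted over the 6 subunit shares. Camk2b took 62.5% ± 0.707 in mutants and 61.5% ± 1.13 in wild type, and Camk2g 21.0% ± 1.22 in mutants and 23.6% ± 1.27 in wild type.

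**Figure D4:**
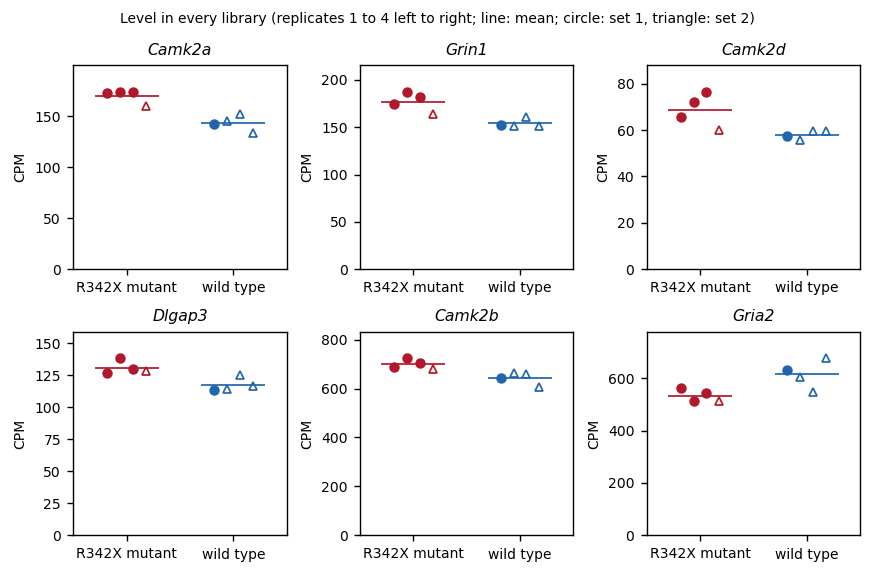
CPM of the 5 genes without overlap between genotypes and of Gria2 in each library, with replicates 1 to 4 from left to right, a line at the mean, filled circles for set 1 and open triangles for set 2. For Camk2a, Grin1, Camk2d, Dlgap3 and Camk2b each mutant point is above each wild-type point, and for Gria2 wild-type replicate 3 falls inside the mutant range.

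The TARPs, which regulate AMPA receptors, were above 0 for 5 of 6 genes with a median log2 fold change of 0.12. With the set as a term 6 of 6 were above 0, with a median of 0.07. Cacng4, the most abundant at 150.5 ± 5.86 TPM in mutants against 143.6 ± 5.96 TPM in wild type, was at 277.4, 276.3, 269.0 and 273.0 CPM in mutants and 268.5, 274.0, 278.1 and 269.9 CPM in wild type. The mutant range lay inside the wild-type range, with a log2 fold change of 0.01 ± 0.04 (SE). Cacng8, a TARP with high levels in adult hippocampus, had the largest difference of the group with genotype alone, at 0.23 ± 0.08 (edgeR adjusted p = 0.297), and was at 0.12 ± 0.06 with the set as a term. Its share of the TPM of the 6 TARPs was 16.5% ± 1.04 in mutants and 14.7% ± 1.35 in wild type, with overlap and an exact permutation p of 0.0857 (0.171 adjusted over the 6 subunit shares). Cacng2, or stargazin, had a log2 fold change of 0.11 ± 0.08.

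The neuroligins, adhesion proteins that bind neurexins across the synaptic cleft, did not separate the genotypes. Nlgn2, which is known from inhibitory synapses and was the most abundant at 162.4 ± 6.92 TPM in mutants against 150.7 ± 5.24 TPM in wild type, was at 378.7, 404.3, 389.6 and 410.2 CPM in mutants and 383.4, 383.0, 393.2 and 382.7 CPM in wild type. Mutant replicates 1 and 3 lay below the highest wild-type library. The Nlgn2 log2 fold change was 0.04 ± 0.04 (SE). Nlgn1, known from excitatory synapses, had -0.03 ± 0.06 and Nlgn3, found at both kinds, had 0.12 ± 0.06, and both overlapped between genotypes. Adding the set gave Nlgn1 -0.09 ± 0.05 and Nlgn3 0.07 ± 0.05.

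**Figure D5:**
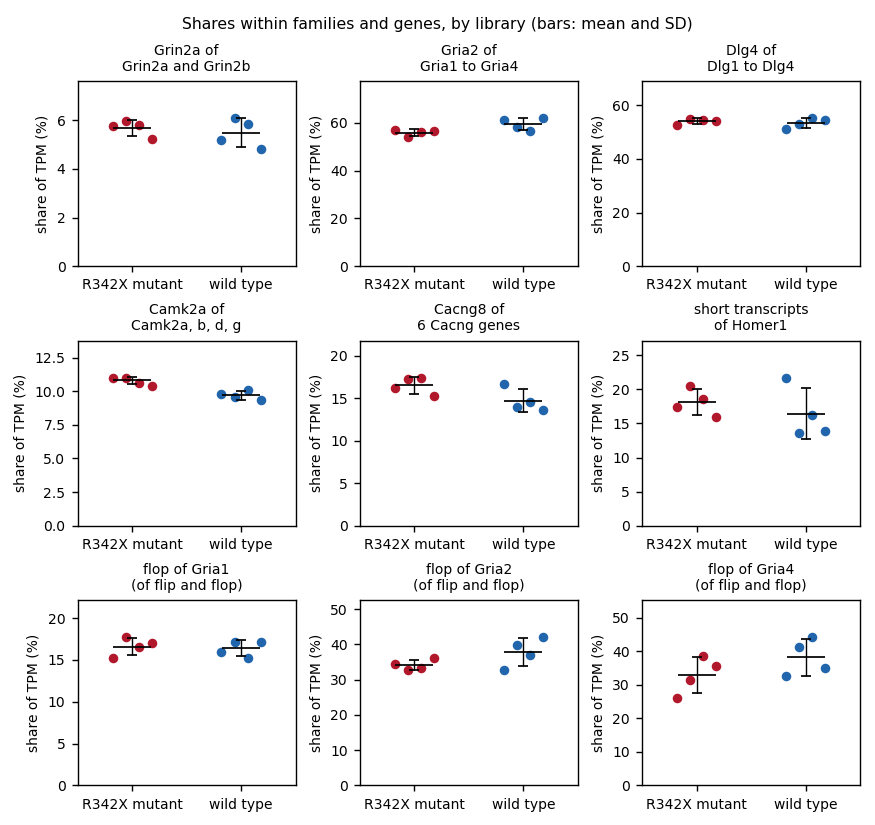
Share of TPM in each library for 6 subunit or short-form shares and for the flop share of Gria1, Gria2 and Gria4, with mutants left of wild type and bars for the mean and SD of 4 libraries. The Camk2a share does not overlap between genotypes, and the other 8 shares do.

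No difference in the choice of transcript within members was detected, by a test with little power after adjustment. Of 91 transcripts in 33 members that carried at least 10% of the TPM of their gene, 0 differed in share by exact permutation after adjustment over all 91 (lowest adjusted p = 0.65), and 0 reached the smallest possible p of 0.0286. A transcript can pass that adjustment only if most of the 91 reach 0.0286. Among 147 transcripts in 43 members with at least 5%, 0 passed and 1 reached 0.0286. Salmon's error in splitting reads between transcripts of a gene is unknown here.

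The matched promoters of members were richer in CpG than RefSeq promoters at large, a comparison that was not limited to genes expressed in cortex. RefSeq promoters (GRCm38.p6, from 250 bases before to 50 after the start) matched 33 of 49 members by symbol. Their median number of CpG was 20 and their median GC content 63.7%, against 7 and 52.7% over 27025 promoters. The GC box GGGCGG, searched on both strands as all motifs here, was in 19 of 33 (57.6%), against 35.9% of all promoters, and the E-box CANNTG was in 21 (63.6%), against 72.1%. The right arm of the REST element, GGACAGC, was in 2 (6.06%), against 6.59%, the left arm TCAGCACC in 1 (3.03%), against 1.59%, and the CRE TGACGTCA in 0, against 1.88%. The promoters of Grin1 (chr2:25319138-25319437, minus strand) and Gria2 (chr3:80802786-80803085, minus strand) are shown as those of the receptor subunit without overlap between genotypes and of the member with the lowest log2 fold change. Capitals mark a GC box in Grin1 and, in Gria2, GCTGTCC, which is the right arm of the REST element read on the other strand. The search for the arms took exact letters only. In Gria2, ggtgctaa follows 2 bases later and differs in 1 base from the left arm on that strand, so it was not counted. A match is a description of letters and not of binding.
Grin1 promoter: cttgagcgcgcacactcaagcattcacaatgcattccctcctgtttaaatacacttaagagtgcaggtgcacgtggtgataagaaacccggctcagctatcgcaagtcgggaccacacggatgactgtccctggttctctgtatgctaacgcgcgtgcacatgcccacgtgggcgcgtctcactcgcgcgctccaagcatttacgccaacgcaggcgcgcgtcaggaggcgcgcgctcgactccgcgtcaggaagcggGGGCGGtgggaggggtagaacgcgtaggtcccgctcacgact
Gria2 promoter: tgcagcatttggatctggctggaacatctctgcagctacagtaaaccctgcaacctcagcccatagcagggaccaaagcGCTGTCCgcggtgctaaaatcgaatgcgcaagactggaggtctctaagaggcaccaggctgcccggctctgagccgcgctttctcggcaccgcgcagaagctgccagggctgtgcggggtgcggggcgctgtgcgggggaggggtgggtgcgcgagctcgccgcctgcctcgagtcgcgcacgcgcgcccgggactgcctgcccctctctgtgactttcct

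Other genes of the glutamate synapse, in 4 lists, gave 0 calls with genotype alone. Of 20 PSD-95 partners and signalling proteins, 19 had a log2 fold change above 0 (median 0.14) with genotype alone, against 50.3% of all tested genes, and 16 (median 0.04) with the set as a term, against 48.5%. Nrgn, which binds calmodulin and sets how much of it reaches CaMKII, averaged 209.6 CPM in mutants against 146.3 CPM in wild type without overlap. Its log2 fold change was 0.52 ± 0.09 (SE; edgeR adjusted p = 0.133), and with the set as a term it was 0.41 (edgeR adjusted p = 0.0305). That fit, whose sets were drawn from these same expression values, called 0.602% of all tested genes. Of 18 AMPA and kainate receptor auxiliary and trafficking genes, 14 were above 0 (median 0.04), and 13 with the set as a term (median 0.05), with the smallest p for Nsf, an ATPase that binds the tail of the Gria2 protein, at 0.26 ± 0.07 (edgeR adjusted p = 0.244). Of 18 trans-synaptic partners, 13 were above 0 (median 0.12), but 10 with the set as a term (median 0.01), with the smallest p for Cbln4 at 0.37 ± 0.11 (edgeR adjusted p = 0.246). Of 9 genes of glutamate handling, 5 were above 0 (median 0.06), and 5 with the set as a term (median 0.04), with the smallest p for the vesicular transporter Slc17a7 at 0.30 ± 0.08 (edgeR adjusted p = 0.225).

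The summed levels of some cell type marker lists lay apart between genotypes and those of others overlapped. The summed level of 8 excitatory neuron markers was 1656 to 1739 CPM in mutants and 1791 to 1881 CPM in wild type without overlap, with 3 of 8 above 0. The lowest p in that list was that of Neurod6, an early neuronal transcription factor, at -0.27 ± 0.06 (SE; edgeR adjusted p = 0.18). Neurod6 had an adjusted p under 0.05 in the fit with the set, at -0.32 (edgeR adjusted p = 0.0305). So did the intermediate progenitor markers Sstr2 at -0.44 (0.00689) and Neurog2 at -0.54 (0.0363). That fit called 0.602% of all tested genes, and its sets were drawn from these same expression values. The 6 radial glia markers summed to 854.8 to 958.1 CPM in mutants and 962.0 to 1004 CPM in wild type, with 0 of 6 above 0, and the 4 intermediate progenitor markers to 39.5 to 54.8 CPM in mutants and 52.5 to 62.0 CPM in wild type, with 1 of 4 above 0. The 5 cell cycle genes summed to at most 121.9 CPM in mutant replicates 1 to 3 and to 158.0 CPM in mutant replicate 4, against 146.9 to 164.4 CPM in wild type, with 0 of 5 above 0. The 5 astrocyte markers summed to 457.0 to 514.8 CPM in mutants and 378.8 to 449.8 CPM in wild type, with 4 of 5 above 0. The 5 microglia markers summed to 69.0 to 75.7 CPM in mutants against 59.7 to 68.8 CPM in wild type, with 5 of 5 above 0 (3 of 5 with the set as a term), and the 6 oligodendrocyte lineage markers to 258.5 to 281.3 CPM in mutants against 226.5 to 271.0 CPM in wild type, with 6 of 6 above 0. The sums of the 6 interneuron markers overlapped, at 423.3 to 481.1 CPM in mutants and 457.5 to 498.4 CPM in wild type, with 2 of 6 above 0. The part of these markers in the members' values was not tested.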

How the data were processed

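Transcripts were quantified by the authors with Salmon 0.12.0 on GRCm38, and DESeq2 is also named, per the submitters' processing notes. The deposited files give an expected count and a TPM per transcript, per the file headers. The authors' deposited table gives a mean signal, log2 fold changes with SE, and p-values, per its header. No source used here gives the use of strand or the model behind that table, so its log2 fold changes may not be on the scale of the edgeR values. Phf6 has -0.93 there and -0.90 here, while Grm8 has 0.03 there and 0.54 here, and Grm7 -0.01 there and 0.52 here. Expected counts were summed per gene and rounded, filtered with edgeR's default, scaled by TMM and tested with edgeR 4.0.16 in R 4.3.3 (quasi-likelihood, two-sided, genotype alone; calls at an adjusted p under 0.05 over all 20097 tested genes). Shares used exact two-sided permutation over 70 assignments. Alternatives were DESeq2 1.42.0, other filters, length offsets, a replicate block, the library set as a term, and leaving out each library. The edgeR fit was tested on simulated data. No pair of replicates agreed within sampling noise. The members, lists and library sets were chosen with earlier results of these data known. Members with values in every library are those without overlap between genotypes, the 3 largest log2 fold changes in each direction at an average log2 CPM of at least 1, and the highest TPM of each role; Grin2d was added after its values were seen. Of the other lists, the gene of smallest p is named.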

Additional observations from a re-analysis of the deposited data

Results flagged for a closer look

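A library far from the other 3 of its genotype, by Dixon's criterion for 4 samples, was found in 10 of 118 groups of libraries (49 genes and 10 shares in each genotype); chance gives about 1 in 20. Wild-type replicate 1 was the library in 5 of these. It was above the other wild-type libraries for Dlg3 (109.3 CPM, the others 85.0 to 87.4), Grik3 (180.9 CPM, the others 151.6 to 152.5), Gria3 (75.6 CPM, the others 66.6 to 67.5) and Dlgap4 (333.1 CPM, the others 288.3 to 291.0), and below them for Cacng7 (105.6 CPM, the others 113.2 to 114.0). Mutant replicate 4 was below the other mutant libraries for Camk2a (160.4 CPM, the others 172.8 to 173.9), Gria4 (66.6 CPM, the others 78.6 to 79.5) and Grm8 (4.75 CPM, the others 6.75 to 6.97). Wild-type replicate 4 was low for Grin2a (11.8 CPM, the others 16.2 to 16.4), and wild-type replicate 3 was high for Nlgn2 (393.2 CPM, the others 382.7 to 383.4). Wild-type replicate 1 and mutant replicate 4 are the libraries that lie in the set that holds mostly the other genotype.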

How the results depend on the processing

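Replicate numbers did not pair the libraries: same-number correlations of deviations from the genotype means were 0.461, -0.076, -0.172 and 0.486. Genes called, 4 with genotype alone, numbered 401 with DESeq2, 13 with no filter, 20 with the replicate block and 121 with the library set, and 3 to 699 when 1 library was left out (14 leaving out wild-type replicate 1, 699 without mutant replicate 4, which leaves mutants in 1 set only). Members called, 0 with genotype alone and with the replicate block, were 4 with DESeq2 and 0 to 7 when 1 library was left out. The 7, without mutant replicate 4, were Grin2d, Camk2a, Grin1, Grin3a, Camk2d and Grm4, higher, and Homer3, lower. The members' median log2 fold change was 0.04 with the set. Of 65 genes in the other lists, 0 were called with genotype alone. DESeq2 called 2, against 2.0% of all genes, and the fit with the set called 1, against 0.602%. There was 1 call with no filter, against 13 of 36354 genes, and 1 with the replicate block, against 20 of 20097. When 1 library was left out there were 0 to 3 calls, the 3 being without mutant replicate 4, against 3.37% of all genes. The difference in the Grin2a share (percentage points, mutant minus wild type) ran from -0.031 to 0.39 and that in the Dlg4 share from -0.174 to 1.21 when 1 library was left out, and the Dlg4 difference was -0.34 in estimated counts. Log2 fold changes near 0 turned sign: Grik2 to 0.0003 with length offsets and between -0.09 and 0.05 when 1 library was left out (0.05 without mutant replicate 4, 0.03 leaving out wild-type replicate 1); Grik5 to 0.0004 with no filter and with the replicate block, 0.05 with the set and between -0.02 and 0.02 when 1 library was left out; Grm5 to -0.10 with the set. For single named members, 218 values kept direction and side of the threshold, 12 turned sign and 8 passed it. The cause of these shifts was not tested. What depth limits was not tested; Grin2c and Grm8 had the fewest reads of the members.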
